A study of Arabidopsis thaliana with 9 samples.

Results

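Gibberellin perception and response genes were followed across Arabidopsis rosettes of 3 genotypes: the 5 DELLA repressors GAI, RGA, RGL1, RGL2 and RGL3, the 3 receptors GID1A, GID1B and GID1C, the F-box protein gene SLY1 and the GRAS family gene SCL3. They were chosen by locus identifier, and all 10 are among the 33323 genes of the deposited tables. The series compared wild-type plants of accession Col-0 with the mutant lines jazQ and jazD, with 3 biological replicates of each and RNA from whole rosettes without roots at 23 days. Each library was a pool of about 20 plants, and the genotypes shared trays at 20 °C with days of 16 h and nights of 8 h. The labels name the lines and not their alleles. As background, 5 of the 13 JAZ genes are mutated in jazQ, namely JAZ10, JAZ9, JAZ4, JAZ3 and JAZ1. Another 5, JAZ13, JAZ7, JAZ6, JAZ5 and JAZ2, are mutated in jazD as well, which makes 10. For jazD the labels add an asterisk to the accession, with no explanation.

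Gibberellin is a growth hormone that binds the soluble GID1 receptors. The occupied receptor grips a DELLA protein, and the SLY1 protein, the substrate-binding part of a ubiquitin ligase, then marks the DELLA protein for breakdown. DELLA proteins hold back growth by binding transcription factors such as the PIFs, and they also bind JAZ proteins, the repressors of jasmonate response. RGL3 transcription is known to be induced by jasmonate through MYC2, a factor that JAZ proteins repress. DELLA proteins are known to raise transcripts of GID1B, of SCL3 and of the synthesis gene GA3OX1. Transcripts, not proteins, were measured here, so DELLA protein stability was not seen.

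Libraries held 15370271 to 20730459 counts in total. Levels are CPM, counts scaled to normalised library size, where 1 gene is compared across libraries, or TPM, which also divide by gene length, where genes are compared with each other. Changes are log2 fold changes ± standard error from edgeR's quasi-likelihood test, and a gene was called when its p, Benjamini-Hochberg adjusted over 19405 tested genes, was under 0.05. All 10 genes passed the filter on low counts. The labels were checked on mutated genes: JAZ1 had 23.8 to 26.5 CPM in Col-0, 2.54 to 2.79 in jazQ and 2.05 to 2.69 in jazD, and JAZ2, mutated in jazD, had 21.1 to 26.9, 29.7 to 47.3 and 2.63 to 3.46. JAZ3, JAZ9, JAZ10 and JAZ13 were called higher in jazD than in Col-0, and a count over a whole gene does not show whether its transcript is intact. Within jazQ, replicate 2 stood apart in the jasmonate-responsive JAZ8, which is not mutated, with 8.499 CPM against 1.66 and 1.204. The leaf markers RBCS1A, LHCB1.3 and RCA summed to 37779 to 39072 CPM in Col-0, 36754 to 43267 in jazQ and 35192 to 35720 in jazD, where RCA was called lower than in Col-0 (-0.50 ± 0.07, adjusted p = 1.18e-04, edgeR). The 6 root hair markers summed to 0 to 0.27 CPM. The 6 floral markers summed to 1.15 to 1.41 CPM in Col-0, 0.798 to 1.06 in jazQ and 0.54 to 0.936 in jazD. The guard cell markers FAMA and MYB60 summed to 27.5 to 32.9 CPM in Col-0, 36.6 to 40.3 in jazQ and 32.9 to 37.4 in jazD, while the summed trichome markers GL2 and MYB23 had 13.5 to 15.3, 18.5 to 21.9 and 16.1 to 20.0. The guard cell markers went different ways in jazD against Col-0, with FAMA called higher (0.39 ± 0.10, adjusted p = 0.00895, edgeR) and MYB60 at 9.12 to 9.48 CPM against 10.53 to 11.3 and not called (-0.25 ± 0.09). In jazQ against Col-0, FAMA was also called higher (0.49 ± 0.10, adjusted p = 0.0225, edgeR) and MYB60 was not called (0.02 ± 0.09). GL2 was called higher than in Col-0 in jazQ (0.51 ± 0.10, adjusted p = 0.0304) and in jazD (0.31 ± 0.11, adjusted p = 0.049, edgeR). MYB23 was called in neither (0.45 ± 0.17 and 0.35 ± 0.17). The part of these markers in the results was not tested. In such whole rosettes, fewer cells that express a gene and less RNA per cell cannot be told apart.

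In jazD rosettes RGL3, the DELLA transcript with the lowest level in Col-0, rose 6.80-fold over Col-0, the receptor GID1B rose 2.61-fold and GID1A 1.32-fold, while GAI fell to 0.805 of its wild-type level. The other 6 genes did not pass the test against Col-0. With 3 genes higher and 1 lower, 4 of 10 were called, beside 25.8% of all tested genes (13.3% higher and 12.5% lower). The median change of the 10 genes was 0.07, beside -0.003 over all tested genes. In jazQ, none of the 10 was called against Col-0 (edgeR), beside 1.27% of all tested genes (0.861% higher and 0.412% lower). At an unadjusted p under 0.05 there were 3 of them, GAI, RGL1 and RGL3, and the DESeq2 Wald test and limma-voom also called 0. No share of all tested genes at that unadjusted p is given here or below, so such counts cannot be judged against it. Between jazD and jazQ, 5 of 10 were called, with RGL3 and all 3 receptor genes higher in jazD and RGL1 lower, beside 28.8% of all tested genes (15.0% higher and 13.8% lower). Comparisons with a group in common share its 3 libraries.

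**Figure D1:**
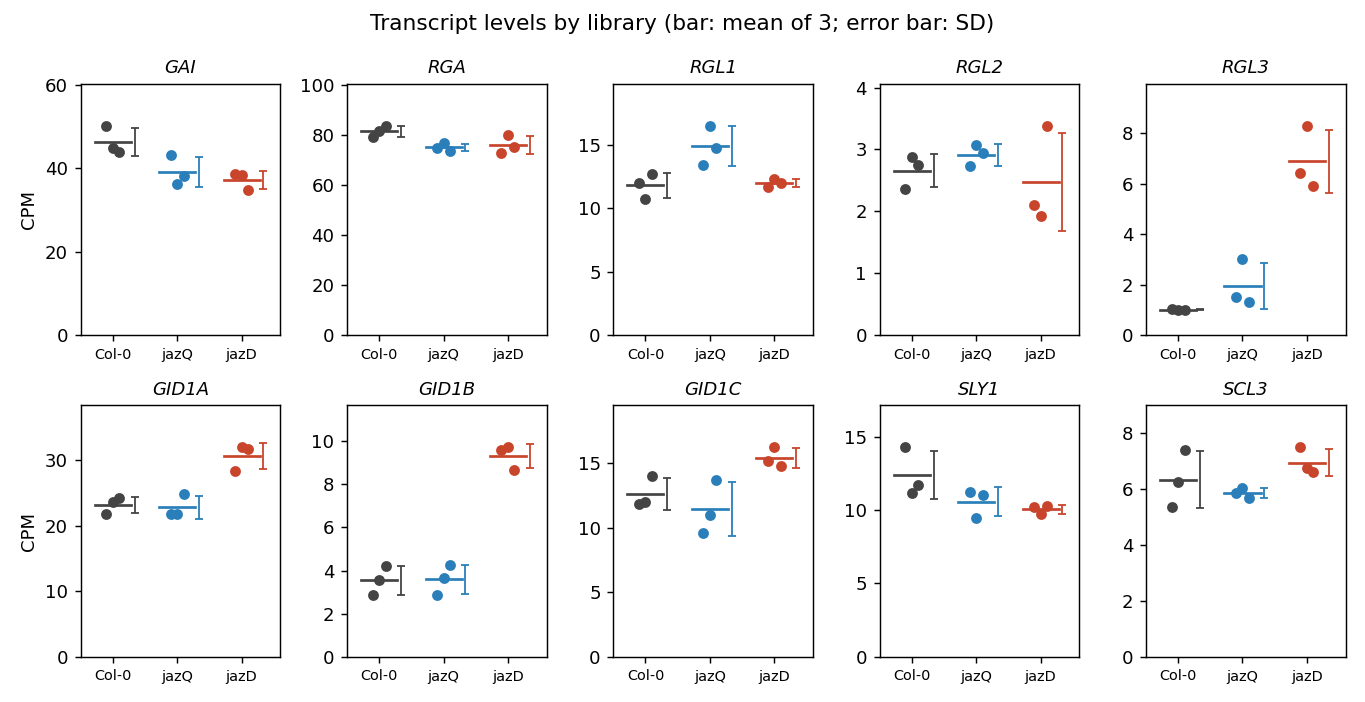
CPM of each of the 10 genes (vertical axes, linear from 0) in the 3 libraries of each genotype. Points are libraries, horizontal bars means of 3 and error bars SD. RGL3 and GID1B in jazD stand at 5.93 to 8.30 and 8.66 to 9.71 CPM, above all Col-0 and jazQ libraries.

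Among the DELLA genes, RGL3 (AT5G17490) had 1.04, 0.978 and 1.00 CPM in the Col-0 libraries, 1.53, 3.01 and 1.3005 in jazQ and 6.43, 8.30 and 5.93 in jazD. All jazD libraries stood above all others, and jazQ replicate 2 stood above the other jazQ libraries. The counts behind these values were 16 to 19 in Col-0, 23 to 51 in jazQ and 105 to 142 in jazD, all whole numbers, with no sign of reads divided between RGL3 and another gene. RGL3 changed by 2.76 ± 0.28 in jazD against Col-0 (adjusted p = 1.19e-05) and by 1.83 ± 0.25 in jazD against jazQ (adjusted p = 1.61e-04, edgeR). Against Col-0 this was the change ranked 182nd from the top among 19405 genes. For jazQ against Col-0 it was 0.93 ± 0.33 and did not pass (adjusted p = 0.249), although the 3 jazQ libraries were above the 3 of Col-0. Without jazQ replicate 2 this value was 0.48. The transcript of MYC2 (AT1G32640), the factor known to drive RGL3, was also higher in jazQ replicate 2 than in its group, with 42.4, 84.5 and 56.7 CPM in jazQ against 28.7, 34.6 and 36.8 in Col-0. In jazD, MYC2 reached 123, 149 and 136 CPM, with jazD replicate 2 the highest for both genes. JAZ8 also stood highest in jazQ replicate 2 within jazQ, at 8.499 CPM. A link of MYC2 to RGL3 in these libraries was not tested.

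GAI (AT1G14920), a DELLA gene with RGA the main restraint on leaf and stem growth, had 50.3, 44.8 and 43.9 CPM in Col-0, 43.3, 36.4 and 38.1 in jazQ and 38.7, 38.4 and 34.8 in jazD. All Col-0 libraries were above those of both mutants, and the mutants overlapped. The fall passed in jazD (-0.31 ± 0.08, adjusted p = 0.0136, edgeR) and not in jazQ (-0.24 ± 0.08, adjusted p = 0.234), and the mutants did not differ in the test (-0.07 ± 0.08, 95% interval -0.24 to 0.09). The jazD call was lost without Col-0 replicate 1 (-0.25) or jazD replicate 3 (-0.26). RGA (AT2G01570) ranged from 72.9 to 83.7 CPM over the 9 libraries, with changes of -0.10 ± 0.06 in jazD and -0.12 ± 0.06 in jazQ that did not pass. The 95% interval for jazD, -0.21 to 0.01, holds no change of the size seen in GAI. Expected counts were whole in 5 of 9 libraries for GAI and for GID1A, 6 for SCL3, 7 for RGA and 8 for GID1B, so that some reads of these genes had been divided between genes.

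RGL1 (AT1G66350) took another course, with 12.0, 10.8 and 12.7 CPM in Col-0, 13.4, 16.5 and 14.8 in jazQ and 11.7, 12.3 and 12.0 in jazD. Its jazQ libraries lay above all others and those of Col-0 and jazD overlapped. It was called lower in jazD than in jazQ (-0.32 ± 0.10, adjusted p = 0.0288, edgeR) but not higher in jazQ than in Col-0 (0.34 ± 0.10, adjusted p = 0.151). The call between the mutants was lost with the DESeq2 Wald test (adjusted p = 0.0644) and without jazQ replicate 2 (-0.24) or 3 (-0.32) or jazD replicate 1 (-0.30), 2 (-0.34) or 3 (-0.31). RGL2 (AT3G03450), best known for holding back seed germination, stayed between 1.93 and 3.39 CPM with overlapping groups. Its change in jazD against Col-0 was -0.10 ± 0.21, with a 95% interval of -0.52 to 0.32, so that a rise like that of RGL3 lies outside it.

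**Figure D2:**
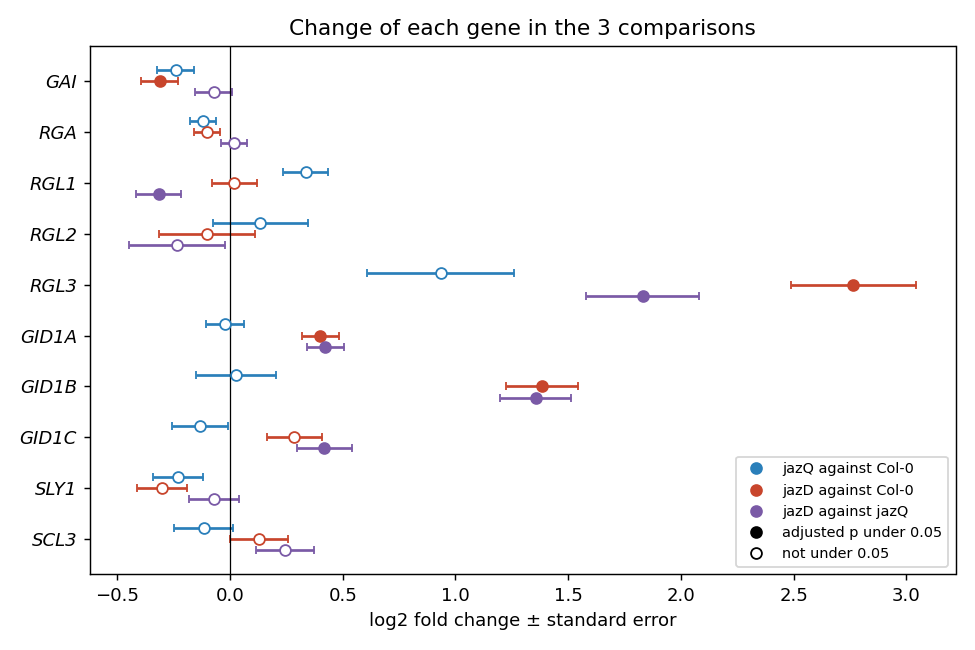
Log2 fold change ± standard error (horizontal axis) of each gene in 3 comparisons, with filled points for an adjusted p under 0.05. RGL3 (2.76) and GID1B (1.38) lie farthest to the right in jazD against Col-0, and none of the points for jazQ against Col-0 is filled.

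All 3 GID1 receptor genes were called higher in jazD than in jazQ, and GID1A and GID1B also higher than in Col-0. GID1B (AT3G63010), the receptor with the highest affinity for gibberellin, had 2.88, 3.55 and 4.22 CPM in Col-0, 2.86, 3.66 and 4.24 in jazQ and 9.56, 9.71 and 8.66 in jazD. Col-0 and jazQ covered the same range, and every jazD library was above it. The change was 1.38 ± 0.16 in jazD against Col-0 (adjusted p = 2.78e-05) and 1.36 ± 0.16 against jazQ (adjusted p = 3.18e-05, edgeR). In jazQ against Col-0 it was 0.03 ± 0.18, with a 95% interval of -0.32 to 0.37.

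GID1A (AT3G05120), which had the highest level of the receptor genes, stood at 21.8, 23.6 and 24.2 CPM in Col-0, 21.8, 21.8 and 24.8 in jazQ and 28.4, 32.0 and 31.7 in jazD. It rose by 0.40 ± 0.08 over Col-0 (adjusted p = 0.0027) and by 0.42 ± 0.08 over jazQ (adjusted p = 0.00171, edgeR). GID1C (AT5G27320) had 11.9, 12.0 and 14.0 CPM in Col-0, 9.64, 11.0 and 13.7 in jazQ and 15.2, 16.3 and 14.8 in jazD. The jazD libraries were above the rest here too. The difference passed against jazQ (0.42 ± 0.12, adjusted p = 0.0213) and not against Col-0 (0.28 ± 0.12, adjusted p = 0.105, edgeR). The call against jazQ was lost without jazQ replicate 1 (0.31) or 2 (0.39) or jazD replicate 2 (0.38). The value against Col-0 passed in a fit of Col-0 and jazD alone (0.28) and in one with the replicate number as a block (0.29).

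SLY1 (AT4G24210) had 14.3, 11.2 and 11.7 CPM in Col-0, 11.2, 9.44 and 11.0 in jazQ and 10.2, 9.71 and 10.3 in jazD. All jazD libraries were below all Col-0 libraries, and the change of -0.30 ± 0.11 did not pass (adjusted p = 0.0639, edgeR). It passed without Col-0 replicate 2 (-0.36), on TPM (-0.35 and -0.37) and with a replicate block (-0.30). SCL3 (AT1G50420), a GRAS protein that works against DELLA repression, ranged from 5.35 to 7.48 CPM over all libraries and was called in no comparison, with 0.13 ± 0.13 in jazD and -0.12 ± 0.13 in jazQ against Col-0. Of the 10 genes, 6 had jazD libraries that did not overlap with those of Col-0, beside 42.6% of all tested genes. For jazQ and Col-0 these were 4 genes, beside 17.3%, and for jazD and jazQ 6 genes, beside 44.2%.

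Per length, RGA was the most abundant of the 10 transcripts in each genotype, with a mean of 45.9 ± 1.62 TPM for Col-0, 41.9 ± 2.21 for jazQ and 40.6 ± 1.77 for jazD (SD, n = 3). In Col-0 the order below it was GAI (28.2), SLY1 (17.7), GID1A (17.4), GID1C (9.89), RGL1 (8.32), SCL3 (4.22), GID1B (2.49), RGL2 (1.67) and RGL3 (0.647). Only SLY1 and GID1A overlapped among neighbours in this order. In jazD, RGL3 (4.21 ± 0.722 TPM) stood above RGL2 (1.48 ± 0.491) and overlapped with SCL3 (4.38 ± 0.283). GID1B (6.19 ± 0.305) stood above SCL3 there, and GID1A (21.8 ± 1.52) overlapped with GAI (21.6 ± 1.03).

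The 5 DELLA transcripts summed to 85.4, 82.8 and 86.1 TPM in Col-0, 77.7, 83.2 and 76.2 in jazQ and 74.0, 78.6 and 74.9 in jazD. In TPM their sum in jazD was thus 89.5% of that in Col-0, with no overlap of the libraries. TPM lack the library scaling of the CPM, whose factors were 1.006 to 1.025 in Col-0 and 0.973 to 0.991 in jazD. RGA, the largest part, went from a mean of 45.9 to 40.6 TPM, but was 0.932 of Col-0 in the fit and not called. How far scale enters the fall of this sum, or the receptor sum below, was not tested. RGL3 went from 0.763% to 5.53% of the sum. RGA held 54.1% of the sum in Col-0 and 53.5% in jazD, and GAI 33.3% and 28.5%. The 3 receptor transcripts summed to 27.5, 29.4 and 32.4 TPM in Col-0, 24.9, 28.3 and 31.6 in jazQ and 37.6, 40.9 and 39.8 in jazD. The jazD sum was 132.5% of that in Col-0, and GID1B went from 8.302% to 15.7% of it. The ratio of DELLA to receptor TPM was 3.11, 2.81 and 2.65 in Col-0, 3.12, 2.94 and 2.41 in jazQ and 1.97, 1.92 and 1.88 in jazD. It was lower in each jazD library than in any other. These sums and ratios describe transcripts of chosen genes and were not tested.

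**Figure D3:**
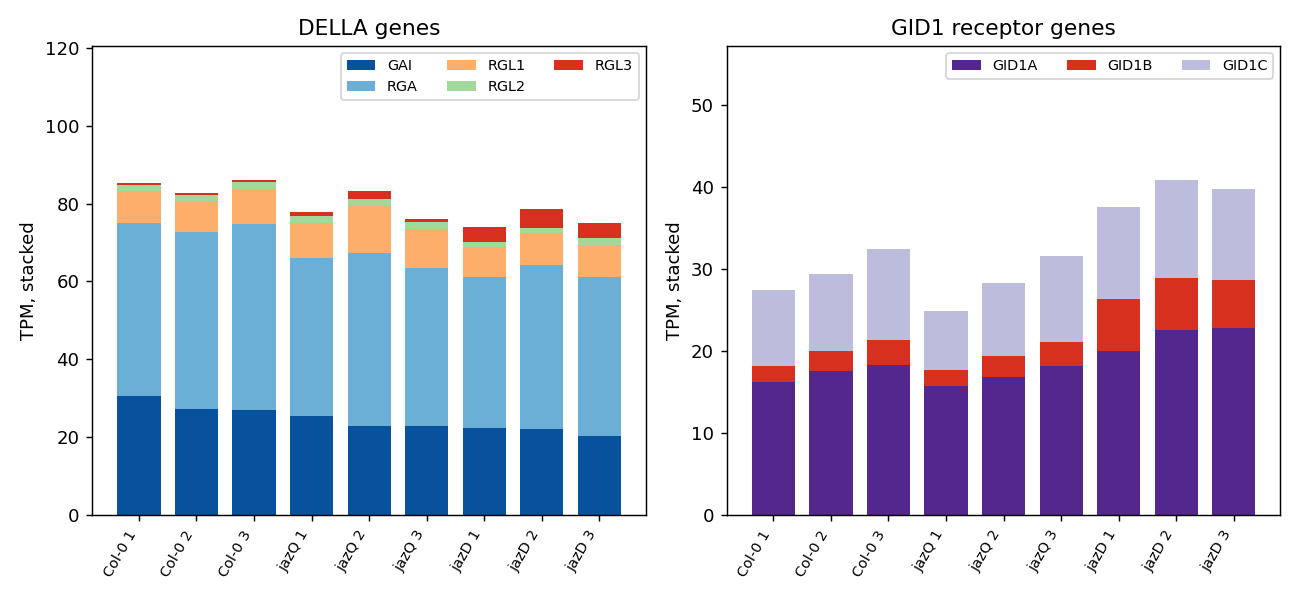
Stacked TPM (vertical axes, from 0) of the 5 DELLA genes and of the 3 GID1 receptor genes in each of the 9 libraries. The DELLA sum is 82.8 to 86.1 in Col-0 and 74.0 to 78.6 in jazD, and the receptor sum is 27.5 to 32.4 and 37.6 to 40.9.

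RGL3, GID1B and GID1A, called higher in jazD against Col-0, hold the motif AACGTG before their start, and so does the synthesis gene GA2, which was called lower. The first 3 are shown here because MYC2 is known to bind such letters. The 250 bases before each gene start are given 5′ to 3′ on the strand of the gene, from the NCBI RefSeq genome TAIR10.1 and its annotation, in which all 10 genes were found by locus identifier. They lie at chr5:5766247-5766496 (minus strand) for RGL3, chr3:23288993-23289242 (plus strand) for GID1B and chr3:1430113-1430362 (plus strand) for GID1A. Capitals mark the motif AACGTG, read on either strand and so also as CACGTT.
RGL3: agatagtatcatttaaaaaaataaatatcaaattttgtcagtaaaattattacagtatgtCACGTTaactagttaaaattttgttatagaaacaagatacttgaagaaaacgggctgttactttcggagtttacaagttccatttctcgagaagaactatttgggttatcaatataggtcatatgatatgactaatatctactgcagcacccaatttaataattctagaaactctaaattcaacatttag
GID1B: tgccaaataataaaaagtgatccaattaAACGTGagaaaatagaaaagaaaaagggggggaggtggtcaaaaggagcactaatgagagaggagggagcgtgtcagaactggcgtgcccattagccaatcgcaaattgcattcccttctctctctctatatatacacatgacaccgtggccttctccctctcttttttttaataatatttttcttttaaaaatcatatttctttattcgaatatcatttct
GID1A: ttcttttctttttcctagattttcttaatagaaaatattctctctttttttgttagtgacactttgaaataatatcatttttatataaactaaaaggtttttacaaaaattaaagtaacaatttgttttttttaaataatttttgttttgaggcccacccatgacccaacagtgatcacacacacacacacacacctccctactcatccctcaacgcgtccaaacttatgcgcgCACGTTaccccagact
The motif starts 190 bases before the gene start in RGL3, 222 in GID1B, 16 in GID1A and 111 in GA2. None of the other 7 DELLA, receptor, SLY1 and SCL3 genes holds it in this window, none of the 10 holds the related G-box CACGTG there, and no stretch of 6 bases matches both motifs. Over 27443 protein-coding genes, 7.54% hold AACGTG and 6.49% CACGTG in the same window. Among the genes called higher in jazD against Col-0 the AACGTG share was 11.5%, among those called lower 6.94% and among those not called 6.58%. For CACGTG these shares were 9.49%, 7.49% and 7.02%. With 1000 bases before the start, 23.8% of all genes hold AACGTG, and so do RGL3 with 3 sites, GID1A and GID1B with 2 each, GID1C with 1, and GA2 and GA2OX2, both called lower, with 2 each. Of the other synthesis and inactivation genes, KAO1, which was not called, holds 1 site. So do GA20OX4, GA20OX5 and ELA1, which had too few counts to be tested. The site of GA20OX5 lies 61 bases before its start. The G-box is found in that window in 14.8% of all genes and, among the 10, in GAI alone, which was called lower, with 1 site 911 bases before its start. The motif was looked for with the changes of these genes known, and a match is a description of letters, not of binding.

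Of the genes for making and for inactivating gibberellin, 4 were called in jazD against Col-0, all lower, beside 25.8% of all tested genes called and 12.5% called lower. Of 14 synthesis genes 7 had enough counts to be tested, and 2 of these (28.6%) fell and 0 rose in jazD against Col-0, with a median of -0.23. GA2 (AT1G79460), the ent-kaurene synthase of an early step, went from 22.4, 21.0 and 23.6 CPM in Col-0 to 11.0, 9.30 and 9.37 in jazD (-1.18 ± 0.09, adjusted p = 5.68e-07). GA3OX1 (AT1G15550), an oxidase that makes bioactive gibberellin, went from 4.49, 4.34 and 3.64 CPM to 1.296, 1.23 and 2.03 (-1.45 ± 0.22, adjusted p = 2.85e-04, edgeR). In both genes all jazD libraries were below all others. GA3 (AT5G25900), the ent-kaurene oxidase, and GA1 (AT4G02780), which acts before GA2, did not pass (0.20 ± 0.08 and -0.86 ± 0.33). GA3 passed with a replicate block (0.21) and without Col-0 replicate 3 (0.26).

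Of 11 inactivation genes 3 were tested, and 2 fell and 0 rose. GA2OX1 (AT1G78440), a gibberellin 2-oxidase, changed by -1.88 ± 0.42 (adjusted p = 0.00501) on few reads, 17 to 22 counts in Col-0 libraries and 3 to 7 in jazD. GA2OX2 (AT1G30040), another 2-oxidase, went from 9.84, 8.37 and 5.81 CPM to 3.73, 3.92 and 4.80 (-0.94 ± 0.26, adjusted p = 0.0246, edgeR), with no overlap of the groups. Its call was lost when replicate 1 (-0.77) or 2 (-0.90) of Col-0 or replicate 1 (-0.87) or 2 (-0.91) of jazD was left out. GA2OX6 (AT1G02400) was not called (0.86 ± 0.48) and had 2.00, 4.21 and 1.86 CPM in jazD, with jazD replicate 2 the highest. It passed with a replicate block (0.83).

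All 16 genes of modifiers and partners of DELLA proteins were tested, and 1 rose and 2 fell in jazD against Col-0, with a median of -0.02. MYC2 rose by 2.03 ± 0.25 (adjusted p = 0.00102). JKD (AT5G03150) and IDD9 (AT3G45260), zinc-finger proteins of the INDETERMINATE DOMAIN family whose members bring DELLA proteins to DNA, fell by 0.56 and 0.33 on the log2 scale (standard errors 0.12 and 0.08, adjusted p = 0.00474 and 0.0078, edgeR). BZR1 (AT1G75080), the brassinosteroid response factor, did not pass (-0.23 ± 0.09), but did on TPM (-0.29 and -0.30), with a replicate block (-0.23) and without jazD replicate 2 (-0.29). Over these 3 lists 7 of 26 tested genes, or 26.9%, were called in jazD against Col-0, near the 25.8% of all tested genes. In jazQ against Col-0, 0 of 26 were called (edgeR), beside 1.27% of all tested genes. There were 5 at an unadjusted p under 0.05, 2 by the DESeq2 Wald test and 0 by limma-voom. Among all tested genes the DESeq2 Wald test called 367 there and limma-voom 237, beside 247 in the main fit. The 2 list genes called by the DESeq2 Wald test were MYC2 (0.88) and IDD9 (-0.32). Both also passed without jazQ replicate 1 (1.08 and -0.40). Between jazD and jazQ, 2 rose and 5 fell, 26.9% of the 26, beside 28.8% of all tested genes (15.0% higher and 13.8% lower). Among them were GA2 (-1.16 ± 0.09), GA3OX1 (-1.25 ± 0.22), GA2OX1 (-1.86 ± 0.42), GA2OX2 (-0.96 ± 0.26) and MYC2 (1.15 ± 0.24). The others were KAO2, a kaurenoic acid oxidase of the synthesis pathway (-0.34 ± 0.09), and XERICO, a RING protein gene raised by DELLA proteins (0.48 ± 0.17, adjusted p = 0.0476), named here after their values were seen. The call of GA2OX2 there was lost without jazQ replicate 1 (-0.78) or 2 (-0.89) or jazD replicate 1 (-0.88) or 2 (-0.92).

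**Figure D4:**
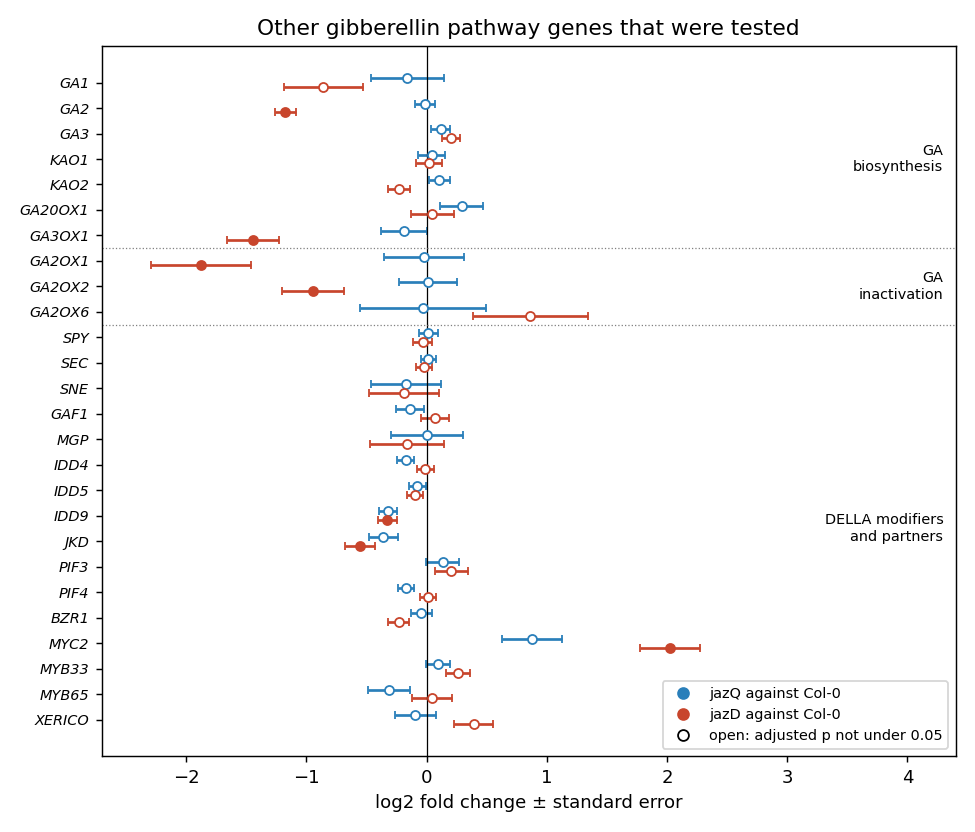
Log2 fold change ± standard error (horizontal axis) of the 26 tested genes of the 3 lists in jazQ and in jazD against Col-0, filled where the adjusted p was under 0.05. The falls of GA2, GA3OX1, GA2OX1 and GA2OX2 and the rise of MYC2 (2.03) in jazD stand out, and no jazQ point is filled.

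The DELLA and SCL3 proteins belong to the GRAS family. Of 26 other GRAS genes 22 were tested, and 6 rose and 3 fell in jazD against Col-0, 40.9% of them, beside 25.8% of all tested genes (13.3% higher and 12.5% lower), with a median of 0.06. SCL11 (AT5G59450) rose by 0.52 ± 0.09 and SCL1 (AT1G21450) by 0.49 ± 0.09 (adjusted p = 0.00108 and 0.00122, edgeR). SCL14 (AT1G07530), which activates detoxification genes, rose by 0.29 ± 0.07, a call lost on TPM (0.20 and 0.21) and without jazD replicate 2 (0.24). SCL6 (AT4G00150), one of the microRNA-regulated HAM genes of shoot meristems, fell (-0.36 ± 0.09, adjusted p = 0.0107). Without jazD replicate 2, 4 of these GRAS genes were called. The count of all tested genes called in that fit is not given here. Over the fits that leave out 1 library it ran from 3728 to 5234, beside 5006 in the main fit. In jazQ against Col-0, 0 of 22 were called (edgeR), beside 1.27% of all tested genes, with 4 at an unadjusted p under 0.05 and 0 by the DESeq2 Wald test or limma-voom. Without Col-0 replicate 3 there was 1, and the share of all tested genes called in that fit is not given here.

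For each gene called in jazD against Col-0, the genes with the most similar log2 CPM over the 9 libraries are named as a description, since the libraries share 3 genotypes. Closest to RGL3 were AT3G51450, annotated in the tables as a calcium-dependent phosphotriesterase family protein (r = 0.992), AT1G23850, annotated as an unknown protein (r = 0.99), and AT1G61610, an S-locus lectin kinase family gene (r = 0.988). AT1G23850 and AT1G61610 reached the mean of 5 CPM asked of such genes only through jazD. Their means were 0.759 and 2.61 CPM in Col-0, 1.84 and 4.56 in jazQ and 13.5 and 12.9 in jazD. Their r with RGL3 thus follows in part from that filter. Closest to GID1B were the noncoding RNA gene GUT15 (AT2G18440, r = 0.991), the MATE efflux family gene AT5G52450 (r = 0.991) and the chlorophyllase gene ATCLH1 (AT1G19670, r = 0.989). Closest to GID1A were AT1G19960 (r = 0.985), the WD40 repeat gene AT5G56190 (r = 0.983) and the metal transporter gene ATNRAMP4 (AT5G67330, r = 0.982). Closest to GAI were the fatty acid elongation gene KCS12 (AT2G28630, r = 0.961), AT1G70900 (r = 0.961) and the sterol pathway gene HMG1 (AT1G76490, r = 0.955). Within the 10 genes, GID1A and GID1B had r = 0.955, RGL3 and GID1B 0.888, and GAI and SLY1 0.875.

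Mutated JAZ genes lie on some of the same chromosomes. In the order of identifiers, 343 tested genes lie between RGL3 and JAZ10 on chromosome 5, 201 between GAI and JAZ5 on chromosome 1 and 122 between SCL3 and JAZ4. Among the 50 tested genes nearest to each gene, 25 on each side, 28% were called in jazD against Col-0 around RGL3, 34% around GID1B, 22% around GID1A and 30% around GAI, against 25.8% of all tested genes. Over the 10 genes these shares ran from 20% to 34%. For jazQ against Col-0 the shares were 6% around RGL1, which has 345 tested genes between it and JAZ9, 4% around RGL3, 2% around GAI and 0% around the other 7, against 1.27% of all tested genes. Whether a linked mutation or linked sequence moves any of these genes was not tested.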

How the data were processed

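Gene expression was measured by RNA-seq in 9 rosette libraries, and groups came from the sample titles. The authors deposited expected counts per gene and TPM values per gene, both from RSEM 1.2.25 with default parameters per the file headers, on TAIR10 per the submitters' processing notes. Expected counts divide reads among the genes they match. For the aligner, strandedness and annotation version, nothing is given in the sources used here. Pools of about 20 plants are biological replicates per the labels' protocols.

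Counts were rounded, filtered with filterByExpr (minimum count 10, leaving 19405 genes), scaled by TMM and fitted with edgeR 4.0.16 in R 4.3.3 (quasi-likelihood F test, robust, all 9 libraries, 1 contrast per comparison). CPM values are counts over scaled library size. Standard errors follow from the F statistic. The 95% intervals use the normal multiplier of these errors, which makes them somewhat too narrow for so few libraries. Alternatives used DESeq2 1.42.0 and limma 3.58.1, other filters and scalings, log2 TPM with a pseudocount of 1 or 0.1, a replicate block and fits that leave out 1 library each.

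The 10 genes and the lists were chosen with earlier results of these data known. Named are the 10 genes, up to 4 members with the smallest p per list for jazD against Col-0, and for each of the 10 genes called there the 3 genes of highest correlation among those averaging 5 CPM or more. The deposited tables hold no coordinates, so promoter windows came from the RefSeq assembly TAIR10.1 with its own annotation. Low counts, such as those of RGL3 and GA2OX1, limit precision.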

Additional observations from a re-analysis of the deposited data

How the results depend on the processing

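Against Col-0, the calls of RGL3, GID1A and GID1B in jazD held in each alternative in which the gene was tested, and the range over fits that leave out 1 library was 2.61 to 2.87, 0.36 to 0.46 and 1.25 to 1.53. RGL3 has a mean under 5 CPM and was not tested with that filter. GID1B passed the filter only because of its jazD libraries, which averaged 9.31 CPM. Its means for the other genotypes were below 5 CPM (Col-0 3.55, jazQ 3.59). The filter thus selects GID1B by the rise under test, so its call with this setting is no separate check. The number of the 10 genes called ran from 3 to 5 without single libraries for jazD against Col-0, was 0 throughout for jazQ against Col-0 and ran from 3 to 5 for jazD against jazQ, with 3 without jazQ replicate 2 or jazD replicate 2. For the 3 gibberellin lists these ranges were 6 to 9, 0 to 2 and 4 to 8, and for all tested genes 3728 to 5234, 136 to 367 and 4289 to 5746. For jazQ against Col-0 the lists had 2 calls with the DESeq2 Wald test and 1, IDD9, without a filter on low counts. The DELLA sum in jazD was 71.6 TPM without RGL3. The other settings, apart from the replicate block below, kept these counts within 1.5 times and the sums within 1 SD, and no called value changed sign.

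The labels state no block and the main fit has none. Between genotypes, however, most libraries deviated from their group mean most like those of their own replicate number. Deviations from the group means correlated between same-numbered libraries at 0.015 to 0.306 (9 pairs). Between differently numbered ones they correlated at -0.245 to 0.088 (18 pairs), so that the ranges overlap. In 16 of 18 comparisons a library correlated best with its own number, and 7 of 9 libraries did so in both other groups. Each pair of libraries enters from both sides, so these comparisons are not independent. Libraries of the same genotype were not compared. With the replicate block, 6 of the 10 genes were called in jazD against Col-0 in place of 4, and the lists had 11 calls in place of 7. No share of all tested genes called there with the block is given here, so these counts cannot be judged against it. For jazQ against Col-0 the lists had 1 call (IDD9) with the block, and all genes 572 in place of 247. The causes of these shifts were not tested.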
